A study of Arabidopsis thaliana with 6 samples.

Results

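The genes described here are the Arabidopsis thaliana autophagy genes whose symbol in the array annotation begins with ATG or APG followed by a digit, taken where a probe set pairs with a single gene. The rule found 10 genes, each with 1 probe set, among the 13356 genes that the annotation pairs with such a probe set on the Affymetrix ATH1 array. The rule itself used no measured value, but the members were chosen with earlier results of these data known. These were 9 genes for ATG8, the small ubiquitin-like protein of autophagy, and ATG3, the enzyme that attaches it to lipid. Other genes of the conjugation pathway carried no such symbol in the annotation, so the set is the ATG8 family with 1 of its conjugation enzymes. The leaves came from line A6, a plant described as deficient in N6-adenosine methylation of RNA (3 arrays), and from wild type (3 arrays). Per the labels, replicates are biological. Both lines gave the third to the sixth rosette leaves at an age of 3 weeks, with no treatment named for either. From the literature A6 is an mta mutant in which the embryo-active ABI3 promoter drives MTA, the methyltransferase, and no other mutant line was measured.

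Autophagy encloses cytoplasm in a double membrane and delivers it to the vacuole for breakdown. ATG8 is made as a precursor that ATG4 trims to a terminal glycine, ATG7 activates it, and ATG3 passes it to phosphatidylethanolamine in the growing membrane, where it anchors cargo receptors. ATG8 transcripts of Arabidopsis are known to accumulate under starvation and in senescing leaves, and atg mutants are known for early leaf senescence.

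The deposited values are log2 units centred on each probe set's median over the 6 arrays, so a value says how far an array lies from the middle of that gene, and no gene's level can be set against another's. Where the lines do not overlap, the highest value of one line and the lowest of the other are mirror images around 0 by construction. Differences are A6 minus wild type on the log2 scale, fitted with limma over 22746 probe sets, and a gene was called at an adjusted p under 0.05. In bulk leaf tissue, fewer cells of a type and less RNA per cell cannot be told apart. Centred values cannot show whether the leaf markers are present at all. In the marker lists 2 of 2 measured photosynthesis, 2 of 2 root, 1 of 1 phloem and 1 of 1 meristem markers did not pass. Their median log2 differences were 0.34, -0.13, -0.23 and -0.20 in that order. The photosynthesis markers were PSAN (0.32, limma adjusted p = 0.0739) and SBPASE (0.35, adjusted p = 0.269). Without wild-type replicate 1 SBPASE passed (adjusted p = 0.0239) and PSAN did not (0.0592). Of 3 stomatal markers STOMAGEN, a secreted peptide that promotes stomata, passed (log2 difference 1.47, limma adjusted p = 0.0427). It did not pass without A6 replicate 1, 2 or 3 or wild-type replicate 2 (adjusted p 0.108 to 0.124). Nor did it with the RNA quality covariate described further on (0.115). The other stomatal markers did not pass and differed in direction, MUTE with -0.15 (limma adjusted p = 0.435) and FMA with 0.15 (adjusted p = 0.458). The part of tissue makeup in the ATG values was not tested.

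None of the 10 ATG genes passed the test: limma called 0 higher and 0 lower in A6, where it called 5.03% of all probe sets higher and 4.74% lower. The values nevertheless lay mostly on one side, with 9 of 10 genes lower in A6 and ATG8E higher, beside 54.9% of all probe sets with a lower value in A6. The median log2 difference of the 10 genes was -0.33, against -0.02 over all tested probe sets. At an unadjusted p under 0.05, 5 of 10 genes were lower in A6 (13.0% of all probe sets), namely ATG8G, ATG8F, ATG8H, APG8H and ATG3. In 5 of 10 genes every A6 array lay below every wild-type array (15.9% of all probe sets), namely ATG8C, ATG8F, ATG8G, ATG8H and ATG3. The single differences ran from -0.58 to 0.26 log2 units, all below a 2-fold change. On simulated data the same procedure recovered 9% of differences of 0.5 log2 units. That simulation changed 100 of 22746 probe sets at each of 0.5 and 1 log2 units, far fewer than the 2222 called here. The adjustment was therefore stricter there, and the 9% does not give the recovery in these data.

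**Figure D1:**
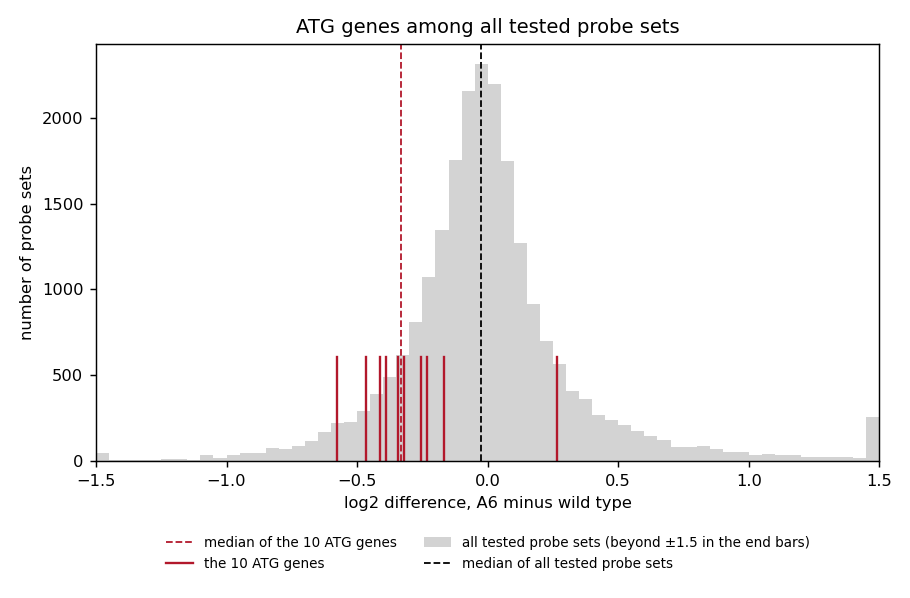
The grey histogram counts all tested probe sets by their log2 difference, A6 minus wild type, and the red marks are the 10 ATG genes. The dashed lines are the medians, -0.33 for the ATG genes and -0.02 for all probe sets, and 9 of the 10 marks lie left of 0.

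ATG8E, ATG8F and ATG8G form a branch of the plant ATG8 family, and its members differed in direction. ATG8G (AT3G60640) had centred log2 values of -0.08, -0.23 and -0.22 in A6 replicates 1 to 3, against 0.08, 0.35 and 0.77 in wild-type replicates 1 to 3. The lines did not overlap, and wild-type replicate 1 was the closest of its line to the A6 arrays. Its log2 difference of -0.58 (SE 0.17, 95% interval -0.97 to -0.18) was the largest in size of the 10 genes and missed the threshold (limma adjusted p = 0.0748). On a linear scale that difference is 1.49-fold, lower in A6.

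ATG8F (AT4G16520) was tight in A6 and spread in wild type. Its values were -0.08, -0.11 and -0.08 in A6 replicates 1 to 3, against 0.08, 0.34 and 0.55 in wild-type replicates 1 to 3. The log2 difference was -0.41 (SE 0.13, limma adjusted p = 0.0913). Over the 6 arrays ATG8F and ATG8G had the highest correlation of any pair of the 10 genes, r = 0.987, given as a description because all points share the same 6 arrays.

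ATG8E (AT2G45170) was the exception of its branch, with values of 0.56, 0.23 and -0.15 in A6 replicates 1 to 3, against -0.16, 0.02 and -0.02 in wild-type replicates 1 to 3. A6 replicates 1 and 2 lay above all wild-type arrays and A6 replicate 3 lay among them. The difference of 0.26 (SE 0.17, 95% interval -0.13 to 0.66) did not pass (limma adjusted p = 0.42). It was 0.09 without A6 replicate 1 and 0.44 without A6 replicate 3, so its size depends on which A6 array is used while its sign does not. The interval of ATG8E began at -0.13, just above the end of that of ATG8G at -0.18, and the difference between these 2 genes was not tested.

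**Figure D2:**
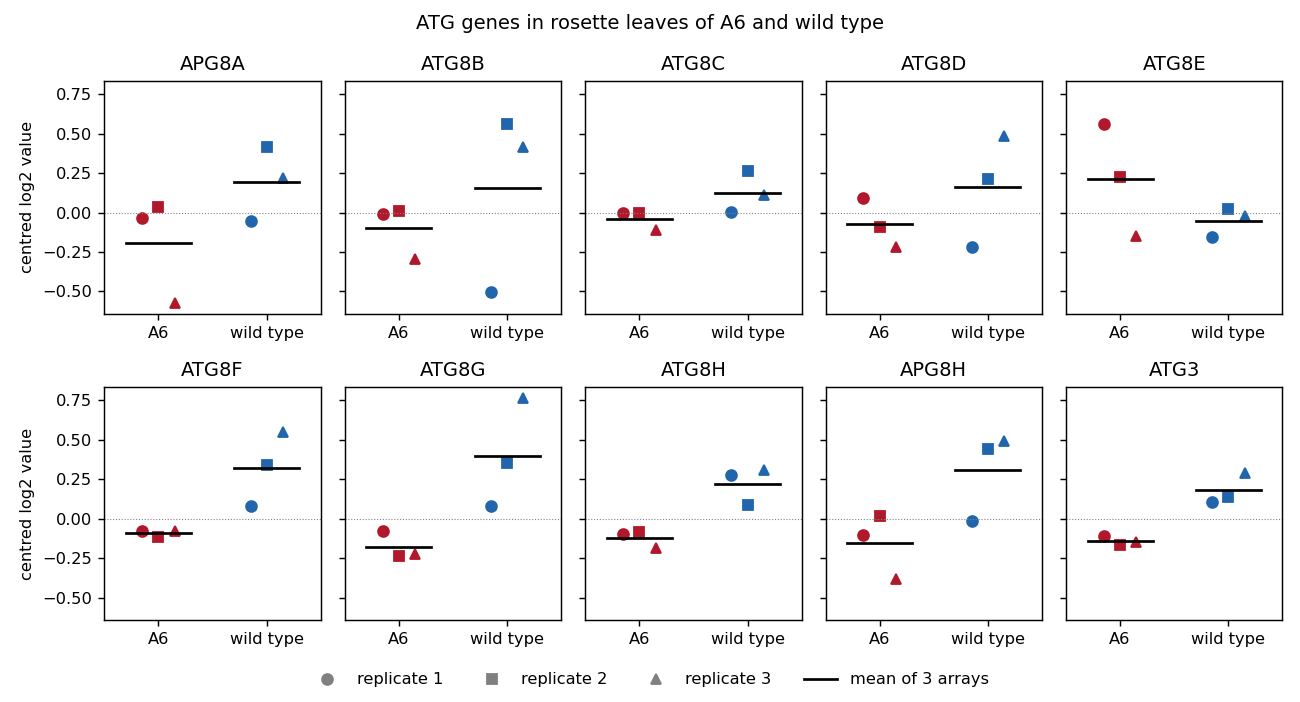
Each panel shows the centred log2 values of an ATG gene on 3 A6 arrays and 3 wild-type arrays, with symbols for replicates 1 to 3 and a bar at the mean of each line. The lines are apart in ATG8C, ATG8F, ATG8G, ATG8H and ATG3, and wild-type replicate 1 is the lowest wild-type array in each panel except ATG8H.

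ATG8H and APG8H belong to the branch of the family whose proteins end near the conjugated glycine and so need no trimming by ATG4. APG8H (AT3G15580) carries ATG8I among its RefSeq synonyms and is a different gene from ATG8H (AT3G06420). ATG8H had values of -0.09, -0.09 and -0.18 in A6 replicates 1 to 3, against 0.28, 0.09 and 0.31 in wild-type replicates 1 to 3. The lines did not overlap, and the difference of -0.34 (SE 0.10, 95% interval -0.58 to -0.11) missed the threshold (limma adjusted p = 0.0784). APG8H had -0.10, 0.015 and -0.38 in A6 replicates 1 to 3, against -0.015, 0.44 and 0.49 in wild-type replicates 1 to 3. A6 replicate 2 lay just above wild-type replicate 1, while the other wild-type arrays stood above all A6 arrays. The APG8H difference was -0.46 (SE 0.17, 95% interval -0.85 to -0.08, limma adjusted p = 0.13).

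The remaining family members, APG8A (ATG8A among its synonyms), ATG8B, ATG8C and ATG8D, make up a further branch. None had an unadjusted p under 0.05, and all 4 had lower means in A6. APG8A (AT4G21980) had -0.035, 0.035 and -0.57 in A6 replicates 1 to 3, against -0.05, 0.42 and 0.22 in wild-type replicates 1 to 3. A6 replicate 3 was far below the other arrays, and the difference of -0.39 had an SE of 0.19 (limma adjusted p = 0.26). ATG8B (AT4G04620) had -0.0082, 0.0082 and -0.29 in A6 replicates 1 to 3, against -0.50, 0.56 and 0.42 in wild-type replicates 1 to 3. Wild-type replicate 1 was therefore the lowest of all 6 arrays for ATG8B while the other wild-type arrays were the highest. This spread, an SD of 0.58 in wild type, gave ATG8B the widest interval of the 10 genes, -0.86 to 0.35 around a difference of -0.25. ATG8D (AT2G05630) had a mean of -0.07 ± 0.16 in A6 and 0.16 ± 0.36 in wild type (SD, n = 3 each), with overlapping lines. ATG8C (AT1G62040) had a mean of -0.04 ± 0.06 in A6 and 0.13 ± 0.13 in wild type (SD, n = 3 each). Its lines did not overlap but lay only 0.0052 log2 units apart at their nearest arrays, and the difference was -0.17 (SE 0.11).

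ATG3 (AT5G61500) encodes the E2-like enzyme that joins ATG8 to its lipid. It had values of -0.11, -0.17 and -0.15 in A6 replicates 1 to 3, against 0.11, 0.14 and 0.29 in wild-type replicates 1 to 3. All A6 arrays lay below all wild-type arrays, and the A6 values had an SD of only 0.03. The difference of -0.32 (SE 0.10, 95% interval -0.55 to -0.10), or 1.25-fold lower in A6, had a limma adjusted p of 0.0804. With any 1 array left out the adjusted p of ATG3 stayed between 0.0554 and 0.222.

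**Figure D3:**
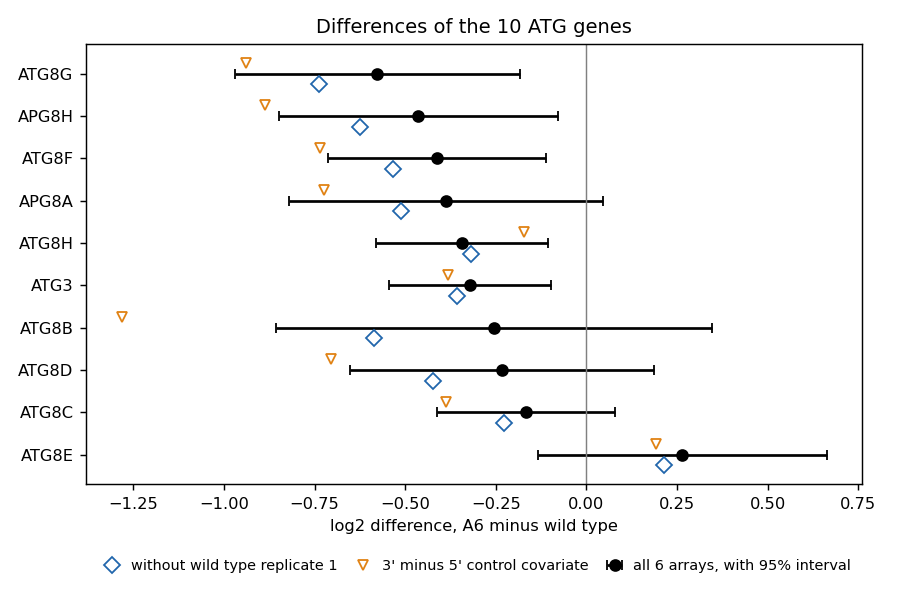
Black points are the log2 differences, A6 minus wild type, of the 10 ATG genes with their 95% intervals, ordered by size. Blue diamonds leave out wild-type replicate 1 and orange triangles adjust for the difference between 3' and 5' control probe sets. All 3 estimates lie below 0 for 9 genes and above 0 for ATG8E.

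The count of 0 genes called lower depended on wild-type replicate 1. In 9 of 10 ATG genes this array was the lowest of the 3 wild-type arrays, ATG8H being the exception, and over all tested probe sets it was the lowest in 36.8%. Within A6, replicate 3 was the lowest array in 7 of 10 ATG genes, beside 32.3% of all probe sets. The median of the 10 genes was -0.06, -0.04 and -0.20 on A6 arrays 1 to 3, against -0.0062, 0.30 and 0.36 on wild-type arrays 1 to 3. Without wild-type replicate 1, 4 genes were lower at the threshold, where 8.29% of all probe sets were called lower: APG8H (-0.63, limma adjusted p = 0.0194), ATG8B (-0.59, adjusted p = 0.0206), ATG8F (-0.54, adjusted p = 0.0149) and ATG8G (-0.74, adjusted p = 0.0124). The ATG8B difference was then 2.3 times its value with all arrays. Leaving out any other single array gave 0 calls. With array weights, which give each array a weight by its fit, 4 genes were called lower (APG8H, ATG3, ATG8F and ATG8G, with limma adjusted p from 0.0114 to 0.0317), where 11.3% of all probe sets were.

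**Figure D4:**
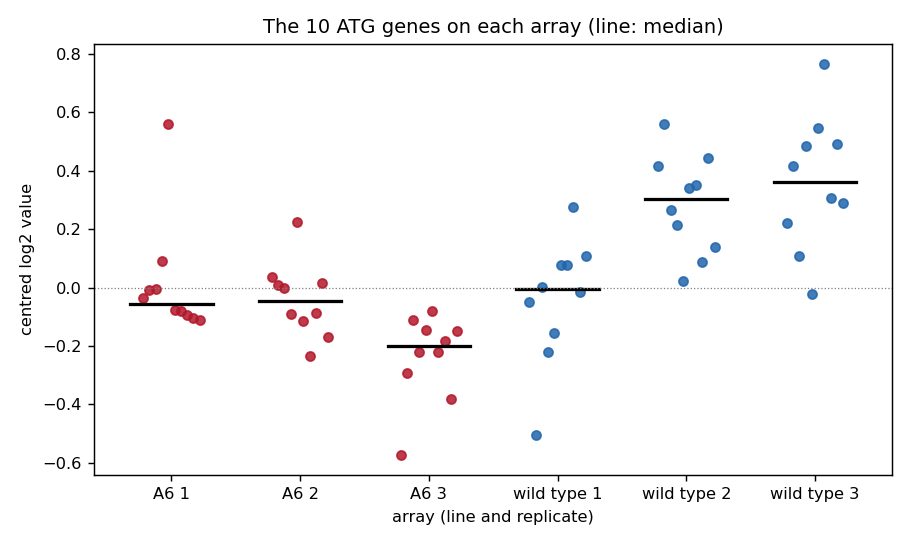
Each point is an ATG gene, plotted as its centred log2 value on each of the 3 A6 and 3 wild-type arrays, with a black bar at the median of the 10 genes. The A6 arrays have medians of -0.20 to -0.04, wild-type array 1 has a median of -0.0062, just above them, and wild-type arrays 2 and 3 have 0.30 and 0.36.

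Control probe sets also differed between arrays. Hybridisation spike-ins, which are not leaf RNA, were highest on A6 replicate 3 (mean of 18 probe sets 0.41) and wild-type replicate 1 (0.40). Their means were -0.04 to 0.02 on the other A6 arrays and -0.37 to -0.10 on the other wild-type arrays. Leaving out A6 replicate 3 and wild-type replicate 1 was a choice made after seeing the data. The same 4 genes APG8H, ATG8B, ATG8F and ATG8G were then called lower, where 7.93% of all probe sets were. The 3' minus 5' difference of Arabidopsis control transcripts, a sign of RNA quality, was -0.03 to -0.02 in A6. In wild-type replicates 1 to 3 it was 0.09, 0.02 and 0.04, so it separated the lines and was highest on wild-type replicate 1. With that difference as a covariate 0 of 10 genes passed, where only 0.633% of all probe sets were called lower. In that fit 9 of 10 genes stayed lower, and the median difference was -0.71. Since the covariate separated the lines, this fit cannot tell its part from that of the line. The covariate moved ATG8B to -1.28 (limma adjusted p = 0.0835), ATG8G to -0.94 and ATG8H to -0.17. The control probe set for large-subunit ribosomal RNA was 0.51 to 0.83 in A6 and -1.06 to -0.51 in wild type, and its part in the ATG values was not tested.

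Among themselves the ATG genes mostly varied together over the 6 arrays. The 45 pairs had a median Pearson r of 0.695, and 6 pairs were below 0, down to -0.42 for ATG8E with ATG8H. ATG8E was a member of each negative pair: without it the other 36 pairs ran upward from 0.194 with a median of 0.77. ATG3 followed ATG8G (r = 0.957) and ATG8F (r = 0.95) closely. These correlations share the 6 arrays and the difference between lines, so they are descriptions. No 2 of the 10 genes are neighbours in the RefSeq gene order: at least 750 genes lie between any 2 on the same chromosome.

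Of 32 further loci listed as core autophagy genes, 10 were measured under a name, with 12 probe sets, and limma called 0 of 12, with 4 at an unadjusted p under 0.05 in either direction, beside 24.3% of all probe sets. Their values were lower in A6 for 9 of 12 probe sets (54.9% of all probe sets), with a median of -0.08. RefSeq gives most of them no name beyond the locus code. The 4 probe sets with an unadjusted p under 0.05 are named here after their values were seen. They are AT3G53930 (-0.40, limma adjusted p = 0.0512), AT3G59950 (-0.30, adjusted p = 0.0945), AT3G18770 (-0.23, adjusted p = 0.182) and, in the other direction, AT3G61960 (0.35, adjusted p = 0.133). AT3G53930 had values of -0.22, -0.12 and -0.17 in A6 replicates 1 to 3, against 0.36, 0.12 and 0.20 in wild-type replicates 1 to 3, so that here wild-type replicate 1 was the highest array. AT5G66930, which RefSeq lists under the synonym ATG101, had a difference of -0.07 (SE 0.21). Of 10 listed receptors and adaptors 1 was measured under a name, AT4G34660 (-0.06). Of 5 listed upstream regulators 1 was also measured under a name, RAPTOR1, a partner of the TOR kinase that restrains autophagy (-0.03). The other listed loci may lie on probe sets that the annotation does not pair with a single gene.

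Vacuolar proteases act after the autophagic membrane has fused with the vacuole. Limma called 0 of 5 measured members, with 1 at an unadjusted p under 0.05, a share near the 24.3% of all probe sets. This was GAMMA-VPE, a vacuolar processing enzyme of vegetative tissue, with values of -0.09, -0.03 and -0.11 in A6 replicates 1 to 3, against 0.03, 0.65 and 0.72 in wild-type replicates 1 to 3. Its difference was -0.54 (SE 0.18, limma adjusted p = 0.106), and -0.76 (adjusted p = 0.00294) without wild-type replicate 1, which was again the wild-type array nearest to A6. AT4G01610, with the next lowest p of the list, had 0.38 (SE 0.20, adjusted p = 0.306).

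Leaf senescence genes are known to be active together with ATG8 genes in ageing leaves. Of 4 measured members 2 rose and 2 did not pass, where 5.03% of all probe sets were called higher. WRKY53, a regulator of senescence and defence, rose by 2.82 log2 units (SE 0.20, limma adjusted p = 0.000479), and SAG101, which is known for both leaf senescence and immune signalling, rose by 0.71 (SE 0.15, adjusted p = 0.0274). WRKY6 had 0.25 (adjusted p = 0.265) and SAG29 had -0.26 (adjusted p = 0.247). SAG101 did not pass when A6 replicate 1 or 2 was left out (limma adjusted p = 0.116 and 0.101), when wild-type replicate 2 or 3 was left out (0.0616 and 0.0694), or under the RNA quality covariate (0.441).

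The likeness of other genes was measured against ATG8G, the ATG gene with the lowest p, by Pearson correlation over the 6 arrays. Among 762 probe sets of genes with a symbol and an SD of at least 0.2, the highest values were those of nad1 (r = 0.985), ATGP4 (r = 0.984) and GRXC2 (r = 0.980). The symbol nad1 is that of a subunit of mitochondrial complex I, and GRXC2 encodes a glutaredoxin. ATGP4 (AT4G24990) is not an autophagy gene despite its opening letters. GRXC2 had values of -0.07, -0.17 and -0.13 in A6 replicates 1 to 3, against 0.07, 0.40 and 0.55 in wild-type replicates 1 to 3. All 3 had lower means in A6, by 0.58, 0.39 and 0.46 log2 units for nad1, ATGP4 and GRXC2, and 0 of 3 passed (limma adjusted p 0.0718 to 0.124). The lower means follow from the choice, since every A6 array of ATG8G lay below every wild-type array, and are no separate result.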

How the data were processed

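The values were deposited by the authors as log2 units made with RMA (background correction, quantile normalization and probe summary), per the submitters' processing notes, with no version or log base given. Base 2 is assumed, since RMA gives it. The deposited values were also centred: each probe set's median over the 6 arrays is 0 within 5.0e-07, a step not described in the sources used here. The level and the signal over background are therefore unknown, and precision is limited by the number of arrays.

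Names came from the platform annotation, updated through RefSeq (TAIR10.1, names and gene order only): 13513 paired with 1 gene (13436 matched RefSeq), 503 with several and 8730 were not listed. The other 64 of the 22810 probe sets are controls and were left out of the tests. Lines were compared in limma 3.58.1 (lmFit, then eBayes, R 4.3.3), two-sided, with Benjamini-Hochberg adjustment over 22746 probe sets. On simulated data the procedure recovered 9% of differences of 0.5 log2 units and 63% of differences of 1 log2 unit (100 probe sets each). Far fewer probe sets were changed there than the 2222 called in these data, which makes the adjustment stricter. These rates therefore hold for the simulated setting only. An exact permutation of 3 against 3 arrays cannot give p below 0.1 and was not used. All members are named. Of the receptor, regulator, protease and senescence lists, all measured genes are named up to 4, otherwise the 2 with the lowest p. Members and lists were chosen with earlier results of these data known. No MTA value, which would check the labels, is analysed here.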

Additional observations from a re-analysis of the deposited data

How the results depend on the processing

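The direction of all 10 ATG genes was the same under each alternative tried: quantile normalization, array medians set to 0, array weights, robust eBayes, the replicate block, the 3' minus 5' covariate, 1-gene probe sets only, each array left out, and both arrays with the highest spike-ins left out. The count called higher in A6 was 0 in each. The count called lower was 0 except with array weights (4: APG8H, ATG3, ATG8F and ATG8G, where 11.3% of all probe sets were called lower), without both spike-in arrays (4) and with single arrays left out (0 to 4, with 4 only without wild-type replicate 1). The cause was not tested. The 2222 calls over all probe sets became 4691 with array weights, 290 with the covariate, 3465 without both spike-in arrays, 1166 over the 13513 1-gene probe sets (fewer tested), and 766 to 3484 with single arrays left out. The replicate numbers showed no clear pairing of the samples. Same-numbered deviations correlated at -0.129, 0.184 and -0.162, and of the A6 arrays only replicate 2 correlated best with its own number. With the replicate block 0 ATG genes and 1526 probe sets were called, and SAG101 and STOMAGEN had adjusted p = 0.0545 and 0.0665. Small differences changed sign: RAPTOR1 ran from -0.14 to 0.042 with single arrays left out (0.00035 without A6 replicate 3), AT5G66930 from -0.23 to 0.14 (0.05 without wild-type replicate 2), and AT4G01610 was -0.028 with the covariate. AT3G53930 passed with quantile normalization (adjusted p = 0.0491) and array weights (0.0183), and with array weights and without both spike-in arrays so did GAMMA-VPE (0.00439 and 0.00627) and AT3G61960 (0.0305 and 0.0347). SAG29 passed with array weights (0.0341). No ATG gene had several probe sets, so a mean over probe sets gave no other value.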
